A study of Mus musculus with 7 samples.

Results

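Apical membrane trafficking was followed through 10 genes in the developing mouse kidney and in a collecting duct cell line: Mal, Mal2, Rab25, Rab17, Rab11a, Myo5b, Myo5c, Stx3, Vamp8 and Sytl2. They were chosen by name, with earlier results of these data known. All probe sets annotated to exactly 1 of these genes were taken, 19 probe sets for 10 of the 18193 genes measured. Expression was measured on Affymetrix mouse arrays in a single array of a freshly isolated subclone of mIMCD-3, 2 arrays of ureteric bud tips, 2 of ureteric bud stalks and 2 of metanephric mesenchyme. The tissues were microdissected from mouse kidneys at E12.5 (days of embryonic development), and mIMCD-3, derived from inner medullary collecting duct of mouse, was grown to confluency in DMEM. No genetic change or drug is named in the labels for any group, and the mIMCD-3 values describe 1 subclone. The mIMCD-3 array was added to tissue arrays that had been published before, so for this sample the cell line and the array batch cannot be told apart.

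Epithelial cells keep an apical membrane facing the lumen by sorting its proteins and lipids into separate carriers. In the usual picture, MAL-type membrane proteins take part in sorting, Rab GTPases of the Rab11 and Rab27 branches mark recycling endosomes and secretory vesicles, class V myosins pull these along actin, and SNARE proteins fuse them with the apical membrane. The ureteric bud is the epithelial tube that branches into the mesenchyme and later forms the collecting duct, where such transport delivers channels to the lumen.

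Bud epithelium and nephron progenitor markers set bud apart from mesenchyme, while the stroma marker sum of stalk was close to that of mesenchyme. All 8 measured bud epithelium markers, among them Cdh1 and Epcam, were higher in bud than in mesenchyme, and all 7 nephron progenitor markers were lower. The renal stroma markers summed to linear intensities of 1107 to 1453 in tip, 12116 to 12805 in stalk and 11545 to 12344 in mesenchyme. Between stalk and mesenchyme 1 of these 8 markers was higher in stalk (Tbx18, 1.41; limma adjusted p = 0.0306), 2 were lower (Foxd1, -1.18, adjusted p = 0.00722, and Meox2, -2.52, adjusted p = 0.000104) and 5 were not called. The endothelial marker sum was 643.5 to 697 in tip, 1804 to 1852 in stalk and 2813 to 3098 in mesenchyme. In mIMCD-3 the stroma sum was 923 and the endothelial sum 178. Foxd1 was the brightest stroma marker in mIMCD-3, at a log2 value of 9.57, with Col1a1 next at 5.73. Foxd1 was 1.42 above its bud mean, while 7 of the 8 stroma markers were at least 1 log2 unit lower than in bud. The erythroid sum was 9639 to 9926 in tip, 17782 to 18106 in stalk and 23714 to 24139 in mesenchyme, and 187 in mIMCD-3. Early nephron markers summed to 4590 to 5283 in tip, 3810 to 4025 in stalk and 2147 to 2295 in mesenchyme, while neuron and glia and smooth muscle markers ran between 218 and 567 on all arrays. Values below are log2 intensities unless linear ones are named, and differences are in log2 units. A value after ± is the standard error, SE, from a limma fit of the 6 tissue arrays, over all genes or, for other probe sets, over all probe sets. Not every difference is printed with its SE, and those of the single mIMCD-3 array have none. Calls were made at p under 0.05 after Benjamini-Hochberg adjustment across the 18193 genes. In tissue RNA, fewer cells of a type and less RNA per cell cannot be told apart. The labels call the tissue arrays biological replicates, and nothing says whether they came from separate litters.

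The question put to the tissues was how far these genes separate the bud epithelium from the surrounding mesenchyme. With tip and stalk averaged as bud and set against mesenchyme, 8 of the 10 genes were higher and 0 were lower, where 6.13% of all genes were called higher and 4.96% lower. The 10 genes were chosen with earlier results of these data known. Here and below, the shares over all genes are therefore given for scale and are no test of the set. An unadjusted p under 0.05 was found for all 10 and for 19.9% of all genes. With the replicate number as a block 9 were higher and 1 was lower, while over all genes the block called 1655 higher and 1552 lower, against 1116 and 902 without it. The median difference of the 10 genes was 1.62, beside -0.02 over all genes. All 4 bud arrays lay above both mesenchyme arrays for 12.1% of all genes, the share to set beside each lack of overlap between bud and mesenchyme given below. Both tip arrays lay above both stalk arrays for 28.2% of all genes. The share of genes with all 3 tissues apart was not counted. The plot of the genes by array shows 3 kinds of profile: genes that step up between mesenchyme and bud, genes at a like level in all tissues, and genes that were dim in the tissues and bright in mIMCD-3.

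**Figure D1:**
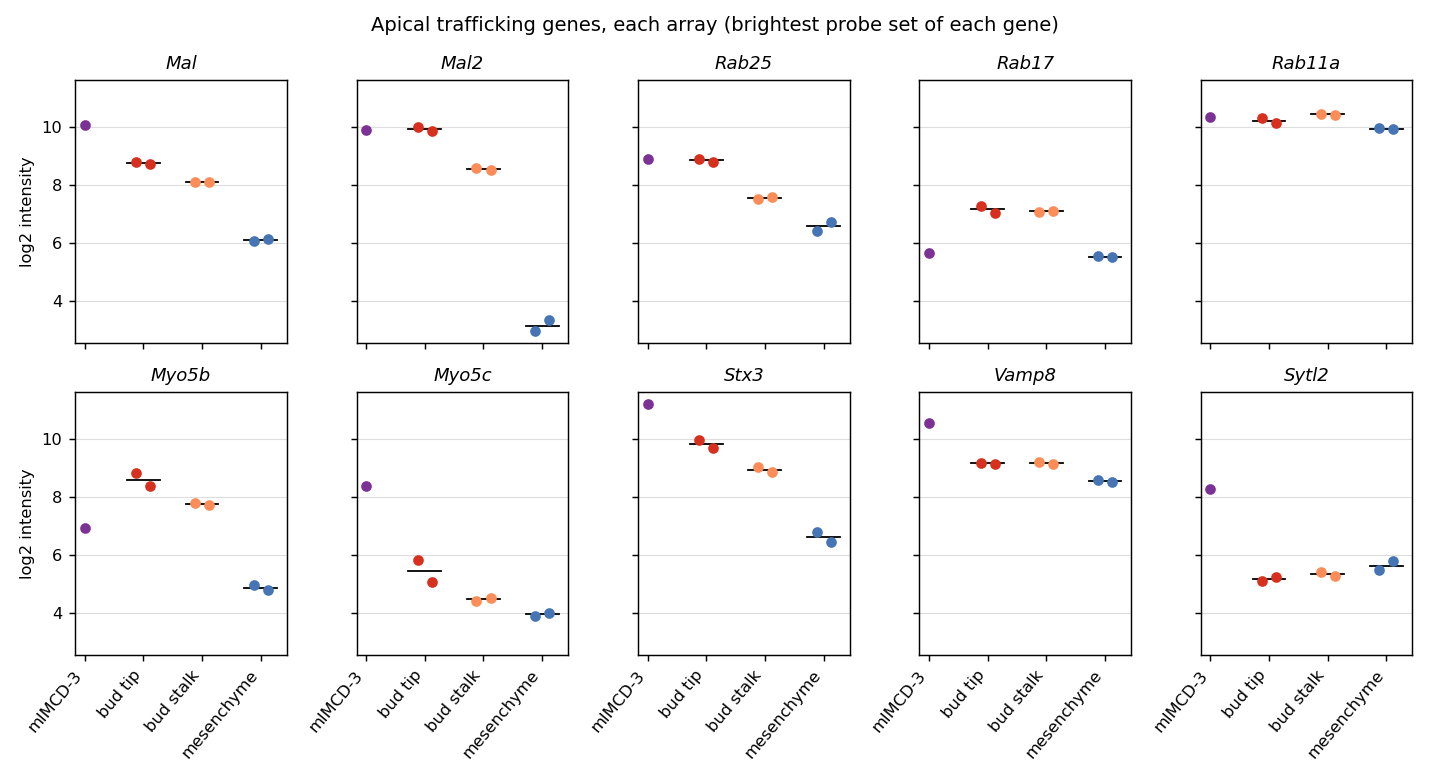
Log2 intensity (y axis) of the brightest probe set of each of the 10 genes in mIMCD-3 (1 array), bud tip, bud stalk and mesenchyme (2 arrays each). Points are arrays and bars are means of 2 arrays. Mal2 spans the widest tissue range, Rab11a varies little, and Myo5c and Sytl2 are highest in mIMCD-3.

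The sorting proteins Mal and Mal2 are small membrane proteins of lipid rafts. Mal acts in the direct delivery of apical proteins in the canine kidney line MDCK, and Mal2 in transcytosis to the apical side in human hepatoma cells. Mal2 measured 10.02 and 9.88 in tip, 8.59 and 8.52 in stalk, and 2.95 and 3.32 in mesenchyme. Every bud array lay far above both mesenchyme arrays, where the probe set sat at the 3.4th and 8.7th percentile of its array and was thus among the dimmest signals. Mal2 was 6.12 ± 0.14 higher in bud than in mesenchyme (SE; limma adjusted p = 7.1e-07), which is the widest step of the 10 genes. Because the mesenchyme values lie at the low end of the array, the size of this difference is uncertain: it was 4.66 when 16 was added to each intensity before the log.

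Mal measured 8.79 and 8.73 in tip, 8.09 and 8.10 in stalk, and 6.06 and 6.15 in mesenchyme on its brightest probe set, 1432558_a_at. The groups did not overlap, and the difference of bud from mesenchyme was 2.33 ± 0.10 (limma adjusted p = 1.03e-05). The second Mal probe set, 1417275_at, gave a far wider step. It measured 9.63 and 9.36 in tip, 8.66 and 8.73 in stalk, and 3.19 and 3.75 in mesenchyme. On it Mal was 5.62 ± 0.17 higher in bud (limma adjusted p = 1.45e-06 over all probe sets). The size is uncertain, since this probe set sat at the 7.4th and 16.7th percentile of the mesenchyme arrays. Between tip and stalk this probe set differed by 0.80 ± 0.20 and was not called (limma adjusted p = 0.0532 over all probe sets).

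Among the small GTPases, Rab25 and Rab11a belong to the Rab11 family of the recycling endosome, Rab25 being the member restricted to epithelia, while Rab17 is an epithelial GTPase of apical recycling and transcytosis. Rab25 was called between bud and mesenchyme and Rab11a was not, which is no test of a difference between the genes, and their promoter windows from RefSeq on build GRCm38.p6 are shown side by side. Each window runs from 250 bases before to 50 bases after the annotated start, 5′ to 3′ on the strand of the gene. Capitals mark a match to AACCNGTT, a core of the sites bound by Grainyhead-like factors, searched on both strands.
Rab25, chr3:88548230-88548529, minus strand: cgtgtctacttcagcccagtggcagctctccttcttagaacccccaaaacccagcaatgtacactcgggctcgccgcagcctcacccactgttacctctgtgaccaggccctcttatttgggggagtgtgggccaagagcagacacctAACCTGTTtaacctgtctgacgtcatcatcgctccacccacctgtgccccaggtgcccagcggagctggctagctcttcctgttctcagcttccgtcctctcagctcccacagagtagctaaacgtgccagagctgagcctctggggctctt
Rab11a, chr9:64737707-64738006, minus strand: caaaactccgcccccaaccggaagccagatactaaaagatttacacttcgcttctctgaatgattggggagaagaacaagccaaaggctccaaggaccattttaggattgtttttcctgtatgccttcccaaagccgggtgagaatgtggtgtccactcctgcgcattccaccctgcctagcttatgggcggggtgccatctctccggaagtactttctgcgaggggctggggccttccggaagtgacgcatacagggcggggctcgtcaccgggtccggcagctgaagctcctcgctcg
The Rab25 window held 1 match, AACCTGTT, beginning at -102 from the start, and 2 matches to CACCTG, the E-box of Snail and Zeb repressors, beginning at -64 and -53. Both strands were searched, and none of these matches overlap. The Rab11a window had neither. Of 32851 windows of this length in the RefSeq table, 2.09% held AACCNGTT and 20.2% held CACCTG. Windows are described here for 7 of the 10 genes (Mal, Rab25, Rab17, Rab11a, Myo5c, Stx3 and Vamp8). Of these, Rab25 held AACCNGTT while Rab25 and Rab17 held CACCTG. The Rab11a window had 16 CpG dinucleotides and the Rab25 window 9, beside a median of 7. A search for TATAAA, the letters of the core TATA box, matched Myo5c, beginning at -236, and Stx3, beginning at -85 as TTTATA. Of all windows, 13.6% hold it, and the search did not ask for a set position. These matches describe letters and not bound sites.

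Rab25 measured 8.91 and 8.81 in tip, 7.50 and 7.58 in stalk, and 6.42 and 6.72 in mesenchyme. The 3 tissues formed separate levels with no overlap, highest in tip and lowest in mesenchyme. Rab25 was 1.63 ± 0.12 higher in bud than in mesenchyme (limma adjusted p = 0.000117). Its step was wider in tip, at 2.29 ± 0.14 (limma adjusted p = 2.86e-05), than in stalk, at 0.97 ± 0.14 (limma adjusted p = 0.0072). The call in stalk was lost without mesenchyme replicate 1 (0.82, adjusted p = 0.0509) and without stalk replicate 2 (0.93, adjusted p = 0.0659).

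Rab17 measured 7.28 and 7.03 in tip, 7.08 and 7.12 in stalk, and 5.53 and 5.50 in mesenchyme. Tip and stalk overlapped, and both lay above mesenchyme. It was 1.61 ± 0.12 higher in bud than in mesenchyme (limma adjusted p = 9.33e-05). Its dimmer probe set, 1450516_a_at, had a difference of 0.33 ± 0.13 that was not called (limma adjusted p = 0.226 over all probe sets).

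Rab11a measured 10.31 and 10.15 in tip, 10.45 and 10.44 in stalk, and 9.97 and 9.94 in mesenchyme. These values were among the top of every tissue array, from the 93.5th percentile upwards, and the 4 bud arrays lay slightly above both mesenchyme arrays. The difference of bud from mesenchyme was 0.39 ± 0.11, with a 95% interval of 0.13 to 0.64, and it was not called (limma adjusted p = 0.0666). A replicate block made it a call (adjusted p = 0.0192), as did limma's trend and robust options (adjusted p = 0.00207), adding 16 before the log (0.0254), dropping the dimmest 40% of genes (0.0304) and leaving out tip replicate 2 (0.0335). In stalk against mesenchyme it was 0.49 ± 0.12 (limma adjusted p = 0.0768, and 0.0194 with the block). Rab11a thus had a small difference in the direction of the bud, whose call rested on the model.

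The class V myosins Myo5b and Myo5c are actin motors. Myo5b binds Rab11 and carries apical recycling vesicles, and its loss in humans causes microvillus inclusion disease, while Myo5c is found in glandular and other epithelia. Myo5b measured 8.83 and 8.38 in tip, 7.81 and 7.71 in stalk, and 4.97 and 4.78 in mesenchyme. The 3 tissues did not overlap, and Myo5b was 3.31 ± 0.15 higher in bud than in mesenchyme (limma adjusted p = 1.07e-05). On the brightest probe sets this was second to Mal2 among the 10 genes, but the second Mal probe set had a wider step, 5.62. With the mean of the probe sets of each gene, Myo5b differed by 1.68, Mal by 3.97 and Stx3 by 1.86. Of its other probe sets, 1437698_at was 1.28 ± 0.12 higher (limma adjusted p = 0.000343 over all probe sets), and 1441104_at had a difference of 0.45 ± 0.15 that was not called (adjusted p = 0.152).

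Myo5c measured 5.84 and 5.06 in tip, 4.42 and 4.53 in stalk, and 3.90 and 3.998 in mesenchyme. It was dim throughout the tissues, between the 21.6th and 54.3rd percentile of the arrays, and the 2 tip arrays were the highest and the furthest apart. Myo5c was 1.503 ± 0.24 higher in tip than in mesenchyme (limma adjusted p = 0.00366) and 1.01 ± 0.20 higher in the mean of tip and stalk (limma adjusted p = 0.0165). In stalk alone the difference was 0.52 ± 0.24 and was not called (limma adjusted p = 0.418), though it was called when only the stalk and mesenchyme arrays were fitted (adjusted p = 0.0445). Its bud call was lost without mesenchyme replicate 1 (0.96, adjusted p = 0.0931) or 2 (1.06, adjusted p = 0.0643). The bud difference was 0.61 when 16 was added before the log (adjusted p = 0.0493) and 0.56 with the mean of its probe sets (adjusted p = 0.0308). The second probe set, 1459520_at, had a difference of 0.10 ± 0.21 that was not called (limma adjusted p = 0.923 over all probe sets).

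The fusion genes are Stx3, the target SNARE of the apical membrane, Vamp8, an endosomal vesicle SNARE that serves regulated secretion in exocrine glands, and Sytl2, a tether that binds Rab27. Stx3 measured 9.98 and 9.69 in tip, 9.05 and 8.87 in stalk, and 6.81 and 6.47 in mesenchyme. It rose in steps without overlap between the tissues, and it was 2.76 ± 0.15 higher in bud than in mesenchyme (limma adjusted p = 2.39e-05). Its other 3 probe sets were higher in bud as well, by 2.11, 1.77 and 0.81 (limma adjusted p = 2.54e-05, 0.000105 and 0.00574 over all probe sets).

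Vamp8 measured 9.19 and 9.15 in tip, 9.21 and 9.14 in stalk, and 8.58 and 8.54 in mesenchyme. Tip and stalk overlapped and the mesenchyme was not far below, so Vamp8 was the called gene with the smallest step, 0.61 ± 0.10 (limma adjusted p = 0.00743). The call was lost without mesenchyme replicate 1 (0.63, adjusted p = 0.0611), mesenchyme replicate 2 (0.59, adjusted p = 0.078) or stalk replicate 1 (0.59, adjusted p = 0.0505). Vamp8 is known in leukocytes too. Of 7 myeloid markers 1 was higher in bud than in mesenchyme (Ptprc, 1.13; limma adjusted p = 0.0257), 4 were lower and 2 were not called, and their linear intensities summed to 309.5 to 368 in tip, 581 to 595 in stalk and 884 to 1016 in mesenchyme. Their part in the Vamp8 result was not tested. Sytl2 measured 5.09 and 5.22 in tip, 5.40 and 5.27 in stalk, and 5.48 and 5.79 in mesenchyme. It was the 1 gene with lower values in bud, by a difference of -0.39 ± 0.13 that was not called (limma adjusted p = 0.126). This was -0.54 without mesenchyme replicate 1 (adjusted p = 0.12) and -0.23 without mesenchyme replicate 2 (adjusted p = 0.725). With the replicate block it was called lower (adjusted p = 0.0436), and in tip the difference of -0.48 ± 0.15 (limma adjusted p = 0.0792) was called with the block as well (adjusted p = 0.026).

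Each bud compartment was set against the mesenchyme on its own. In tip 8 genes were higher and 0 lower, where 7.38% of all genes were called higher and 8.37% lower. In stalk 7 were higher and 0 lower, where 4.3% of all genes were called higher and 1.24% lower, and Myo5c was the gene called in tip and not in stalk. At an unadjusted p under 0.05 the counts were 9 of 10 in tip, where 25.1% of all genes had one, and 8 of 10 in stalk, where 13.3% did. The median difference of the 10 genes was 1.96 in tip and 1.27 in stalk. Leaving out each mesenchyme or stalk array in turn left 5 or 6 genes higher in stalk, and Vamp8 was lost each time, while 9 were higher without either tip array. Both compartments share the mesenchyme arrays, so their differences are not independent.

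**Figure D2:**
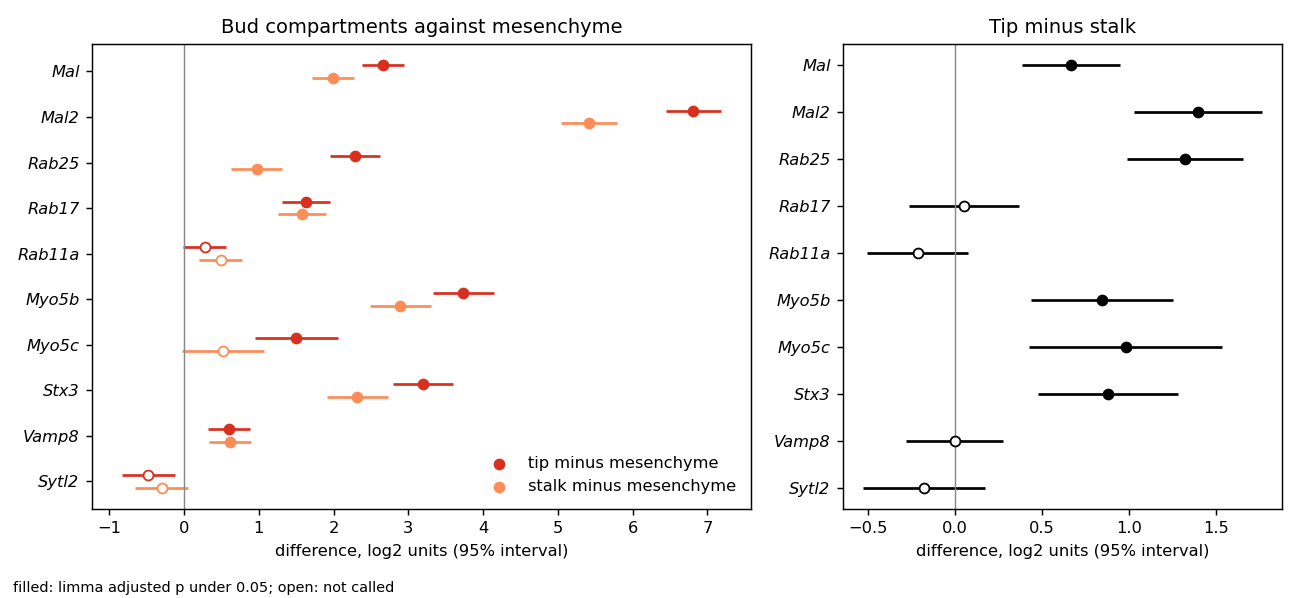
Differences in log2 units with 95% intervals from the limma fit, for tip and stalk against mesenchyme (left) and for tip against stalk (right). Filled points passed an adjusted p of 0.05 and open points did not; Mal2 has the widest differences, and Rab17, Rab11a, Vamp8 and Sytl2 have intervals across 0 in tip minus stalk.

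Tip and stalk were then compared with each other, to see whether the genes differ along the bud. Tip was higher for 6 of the 10 genes and lower for 0, where 2.86% of all genes were higher in tip and 6.97% lower. The genes were Mal2 (1.40 ± 0.16; limma adjusted p = 0.00128), Rab25 (1.32 ± 0.14; adjusted p = 0.00104), Myo5c (0.98 ± 0.24; adjusted p = 0.0407), Stx3 (0.88 ± 0.17; adjusted p = 0.0169), Myo5b (0.84 ± 0.17; adjusted p = 0.021) and Mal (0.66 ± 0.12; adjusted p = 0.0122). They include both sorting proteins and both myosins. Both tip arrays lay above both stalk arrays for these called genes, as they did for 28.2% of all genes. Paired by replicate number, the differences ran between 0.63 and 0.70 for Mal and between 1.36 and 1.43 for Mal2, and were least even for Myo5c, at 0.535 and 1.42.

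The other 4 genes were not called between tip and stalk. Rab17 differed by 0.05 with an interval of -0.26 to 0.37, Vamp8 by -0.00 with an interval of -0.28 to 0.28, Rab11a by -0.21 with an interval of -0.50 to 0.08 and Sytl2 by -0.18 with an interval of -0.53 to 0.17. For these 4 a difference of 1 log2 unit in either direction lies outside the interval. Rab17, Vamp8 and Rab11a therefore had bud values that were close between the compartments, within those intervals, while Rab25 stood clearly higher in tip.

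All 8 stroma markers were lower in tip than in stalk, and 4 of the 8 bud epithelium markers were also higher in tip (median 0.74). Epcam was 0.98 ± 0.17 higher in tip (limma adjusted p = 0.0093), and Cdh1 had a difference of 0.56 ± 0.15 that was not called (adjusted p = 0.0574). With the replicate block 6 of the 8 bud epithelium markers were higher in tip, and with trend and robust variance 7, Cdh1 among them in both. An unadjusted limma p under 0.05 was found for all 8. The part of these markers in the tip and stalk differences was not tested. Without stalk replicate 1 or stalk replicate 2, 2 of the 10 genes were called, Mal2 and Rab25. Over all genes 521 were higher in tip and 1268 lower, and with arrays centred on their medians the split was 1024 and 1085, with the same count of 6 of the 10 genes. The Myo5c call was also lost when 16 was added before the log (0.66, adjusted p = 0.0643) and with the mean of its probe sets (0.57, adjusted p = 0.0568), and the Stx3 call without tip replicate 1 (0.73, adjusted p = 0.0523).

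The line mIMCD-3 was set against the embryonic bud, to place the genes in a collecting duct cell. It has a single array, so no test was made and genes were sorted by a difference of at least 1 log2 unit from the mean of the 4 bud arrays. By that rule 5 genes were higher and 2 lower in mIMCD-3, where 9.75% of all genes were higher and 9.33% lower. Above all 4 bud arrays lay 5 genes, inside their range 3 and below it 2, where 32.8% of all genes lay above and 37.2% below. With the mean of the probe sets of each gene the counts were 5 and 1, since Myo5b then differed by -0.92.

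Myo5c and Sytl2, both dim in the tissues, had the widest differences in the line. Myo5c measured 8.38 in mIMCD-3, which is 3.42 above the bud mean of 4.96 and at the 80th percentile of the array. Sytl2 measured 8.28 in mIMCD-3, 3.03 above the bud mean of 5.25, and also 2.64 above the mesenchyme mean of 5.63. For Myo5c the second probe set, 1459520_at, was dim on all arrays and differed by -0.19 in mIMCD-3, so the Myo5c difference rests on 1 probe set and was 1.61 with the mean of both. Sytl2 has a single probe set.

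Stx3 measured 11.23 in mIMCD-3, at the 97.5th percentile of the array, and 9.40 in the bud mean, a difference of 1.83. All 4 Stx3 probe sets were higher in mIMCD-3, by 1.83 to 2.88. Mal measured 10.06 in mIMCD-3 and 8.43 in the bud mean, a difference of 1.63, and 1.97 on its second probe set. Vamp8 measured 10.57 in mIMCD-3 and 9.17 in the bud mean, a difference of 1.40. For Stx3, Mal and Vamp8 the mIMCD-3 value lay above each of the 4 bud arrays.

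Mal2, Rab25 and Rab11a lay within the range of the bud arrays in mIMCD-3 on their brightest probe sets. Mal2 measured 9.89 in mIMCD-3, -0.06 from the tip mean of 9.95 and 1.34 from the stalk mean of 8.55. Rab25 measured 8.89 in mIMCD-3, 0.03 from the tip mean of 8.86 and 1.35 from the stalk mean of 7.54. Rab11a measured 10.37 in mIMCD-3 and 10.34 in the bud mean. Its second probe set, 1434549_at, read 8.99 in mIMCD-3, below all 4 bud arrays at 9.13 to 9.60, a difference of -0.43. The line therefore carried Mal2 and Rab25 at the level of the tip arrays and above that of the stalk arrays.

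Rab17 and Myo5b were lower in mIMCD-3 than in bud. Rab17 measured 5.63 in mIMCD-3, against 7.13 in the bud mean and 5.52 in the mesenchyme mean, so its difference was -1.49 from bud and 0.11 from mesenchyme. Its level in the line was close to that of the non-epithelial tissue. Myo5b measured 6.93 in mIMCD-3, which is -1.26 from the bud mean of 8.19 and 2.05 above the mesenchyme mean of 4.87. The second Myo5b probe set differed from bud by -1.36, and 1441104_at by -0.13, while the second Rab17 probe set differed by -0.55. On 1437698_at Myo5b read 5.15 in mIMCD-3, against 5.30 and 5.17 in mesenchyme, so its level above mesenchyme in the line rests on the brightest probe set.

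Against mesenchyme, 8 of the 10 genes were at least 1 log2 unit higher in mIMCD-3 and 0 lower, where 11.2% of all genes were higher and 9.78% lower. The exceptions were Rab17 and Rab11a, with differences of 0.11 and 0.41. With the mean of the probe sets 7 were higher, since Myo5b then differed by 0.76. In mIMCD-3 the bud epithelium markers summed to a linear intensity of 12966, compared with 28954 to 31349 in tip and 16230 to 16411 in stalk. Of these markers 5 of 8 were at least 1 log2 unit lower in mIMCD-3 than in bud, with differences of -9.71 for Calb1, -5.68 for Ret, -4.27 for Gata3, -3.37 for Wnt9b and -1.13 for Epcam. Cdh1 measured 10.88 in mIMCD-3, which is 0.13 from its bud mean, and Krt8 and Krt18 were 0.63 and 0.65 from theirs. The line thus held Cdh1, Krt8 and Krt18 within 1 log2 unit of bud. Calb1 differed from its mesenchyme mean by -2.54, while Ret (-0.66), Wnt9b (-0.32) and Gata3 (-0.08) were within 1 log2 unit of theirs.

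**Figure D3:**
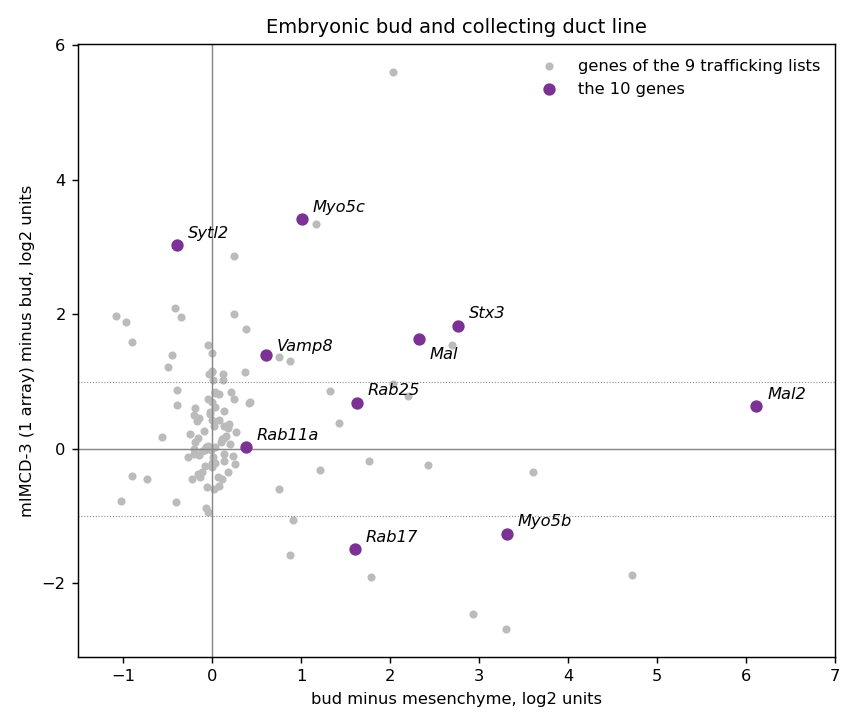
Difference of bud from mesenchyme (x axis, log2 units) and of the single mIMCD-3 array from bud (y axis, log2 units) for the 10 genes and, in grey, the genes of 9 trafficking lists. Dotted lines mark 1 log2 unit; both axes use the bud arrays, with opposite sign, so the axes are not independent. Myo5c and Sytl2 lie highest of the 10 genes, and Rab17 and Myo5b lie below the lower dotted line.

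Agreement between probe sets was checked for the 6 genes with more than 1. Of the 19 probe sets, 13 were higher in bud than in mesenchyme and 0 lower in a limma fit of all 34945 single-gene probe sets, of which 4.96% were called higher and 3.9% lower. Probe sets of 1 gene share its RNA and are not replicates. The 6 that were not called were both Rab11a probe sets, the Sytl2 probe set, the dimmer probe set of Rab17 and of Myo5c, and the dimmest of Myo5b. All 4 Stx3 probe sets and both Mal probe sets were higher. Levels of different probe sets reflect their probes as well as the RNA, and only their differences between groups were compared.

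**Figure D4:**
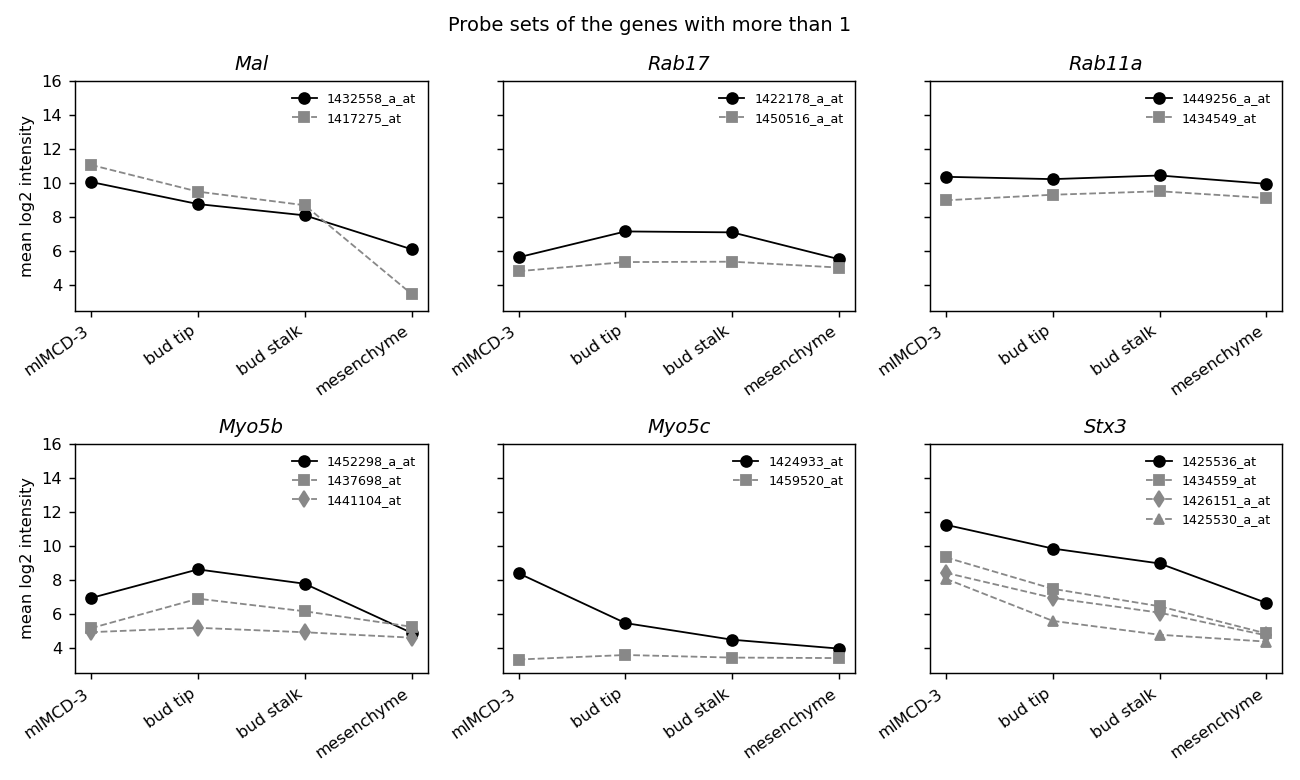
Mean log2 intensity (y axis) by group for each probe set of the 6 genes with more than 1, in mIMCD-3 (1 array) and the tissues (means of 2 arrays). Black solid lines are the brightest probe set of a gene and grey dashed lines the others; lines only join points of 1 probe set. Both Mal probe sets are highest in mIMCD-3 and lowest in mesenchyme, and the second Myo5c probe set is flat.

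The 10 genes also varied among themselves over the 7 arrays, which is described here without a test, since all arrays share 1 normalisation. Every such value includes the step between bud and mesenchyme and the single mIMCD-3 array. Myo5c read 8.38 in mIMCD-3 and 3.90 to 5.84 in the tissues, Sytl2 8.28 and 5.09 to 5.79, and Vamp8 10.57 and 8.54 to 9.21. Correlations of these 3 genes, and their nearest profiles below, thus lean on 1 array. Mal and Stx3 had the closest pair of profiles (Pearson r = 0.996), followed by Myo5c and Vamp8 (0.95). Rab17 and Sytl2 ran most oppositely (-0.57), and Myo5b and Sytl2 came next (-0.21). Over all 18193 genes, the profiles most like Mal2 were those of Esrp1 (0.999), Cldn7 (0.997), 2610528J11Rik (0.997), Bcam (0.997) and Large2 (0.997), of which Esrp1 is an epithelial splicing regulator and Cldn7 a claudin. The nearest to Rab25 were Tmem54 (0.998), Wars (0.997), Ano1 (0.997), Gm33560 (0.996) and Samd10 (0.992). Those nearest to Rab11a were weaker, with Hmgn3 (0.981), Nucb1 (0.976), Fat1 (0.973), Glis2 (0.973) and Ctnna1 (0.972).

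For the other genes the nearest 3 profiles were as follows. Mal ran with Tor4a (0.998), Tmem125 (0.998) and Ugt8a (0.9975), and Stx3 with Tspan33 (0.999), the membrane protease gene St14 (0.999) and Wfdc2 (0.998). Myo5b ran with Septin4 (0.999), the adaptor gene Ap1s3 (0.999) and Frk (0.998). Rab17 ran with Dcdc2a (0.997), Map3k21 (0.996) and Slc7a8 (0.996). Vamp8 ran with Dapp1 (0.999), Ak3 (0.997) and Adgrg1 (0.9965). Myo5c ran with Plscr2 (0.997), Psmd2 (0.996) and Fasn (0.995), and Sytl2 ran with Tbx15 (0.998), C130075A20Rik (0.996) and Plod3 (0.996).

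Relatives and partners of the 10 genes were followed in 9 lists of trafficking genes, of which the lists nearest the recycling endosome come first. Of 16 Rab11 effectors and apical Rab genes, 3 were higher in bud than in mesenchyme and 0 lower (median 0.01). They were Rab3ip, an exchange factor for Rab8 (2.20 ± 0.12; limma adjusted p = 2.69e-05), and the Rab11 binding proteins Rab11fip2 (1.21; adjusted p = 0.00272) and Rab11fip4 (0.91; adjusted p = 0.00358). Rab11fip5, another Rab11 binding protein, had the next widest difference in bud, -0.42, which was not called (adjusted p = 0.28). With the replicate block Rab11fip5 was called lower, so that 3 genes were higher and 1 lower. Between tip and stalk, Rab3ip (0.96) and Rab11fip4 (0.61) were higher in tip and Rab11fip5 was lower (-1.36). In mIMCD-3 Rab27a, the partner of Sytl2 in vesicle docking, was 2.87 above its bud mean and Rab11fip5 2.10 above.

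Of 3 synaptotagmin-like and related genes measured, 0 were called between bud and mesenchyme by limma, 0 had an unadjusted p under 0.05, and with the replicate block Sytl4 was called higher. Sytl4 was 1.78 above its bud mean in mIMCD-3 and Unc13d 1.02 above, while Sytl1 differed by 0.04.

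Among 10 relatives of Mal, 5 were higher in bud than in mesenchyme and 2 lower (median 0.32). The tight junction MARVEL genes Marveld2 (3.61; limma adjusted p = 2.5e-05) and Marveld3 (2.70; adjusted p = 2.62e-05) led, with Cmtm4 (1.43) behind, while Cmtm3 was lower (-1.02; adjusted p = 0.00173). Between tip and stalk, Marveld3 (1.08), Cmtm8 (1.00) and Cmtm4 (0.51) were higher in tip and Cmtm3 (-1.90) and Marveld1 (-1.65) lower. In mIMCD-3, Marveld1 was 1.59 and Marveld3 1.55 above the bud mean.

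The plasma membrane SNAREs include partners of Stx3 and Vamp8. Of 7 plasma membrane SNARE and Munc18 genes measured, 0 were called between bud and mesenchyme by limma, and 3 had an unadjusted p under 0.05. With the replicate block, and likewise with trend and robust variance, 1 was higher and 2 lower. Stxbp2, the Munc18 protein that binds Stx3, had a difference of 0.43 (limma adjusted p = 0.088) and was higher in tip than in mesenchyme (0.67; adjusted p = 0.019). In that comparison 1 of the 7 was higher and 2 were lower, Stx2 (-0.84; adjusted p = 0.00701) and Snap23 (-0.60; adjusted p = 0.0379), with a list median of -0.32. Snap23, which completes the SNARE complex, differed by -0.40, Stx2 by -0.50 and Stx4a by -0.19. Stx2 was lower in tip than in stalk (-0.69; adjusted p = 0.0268) and was 1.21 above its bud mean in mIMCD-3.

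The 9 exocyst subunits, which tether vesicles to the plasma membrane, had differences between -0.16 and 0.24 in bud against mesenchyme. By limma 0 of 9 were called, 0 had an unadjusted p under 0.05, and 0 were called with the block or with trend and robust variance. Exoc2 (0.24), Exoc7 (-0.16), Exoc6b (0.15) and Exoc6 (0.12) were the furthest from 0. In mIMCD-3 Exoc8 was 1.16 and Exoc6 1.11 above the bud mean. Of 27 housekeeping genes of endosome, Golgi and ER transport, 1 was higher in bud, the Golgi SNARE gene Gosr2 (0.75; limma adjusted p = 0.00392), and 0 were lower, with a median of 0.00. Stx5a was lower in tip than in stalk (-0.51; adjusted p = 0.0353). Rab21 (1.42) and Rab7 (1.14) were above their bud means in mIMCD-3.

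Genes that sort cargo showed steps at single members. Of 10 apical sorting lectins and raft genes, 2 were higher in bud than in mesenchyme and 2 lower (median -0.12). Lgals3, galectin-3, a lectin of apical sorting in MDCK cells, was 2.03 higher (limma adjusted p = 1.88e-05) and Cav2 1.16 higher, while the annexin gene Anxa2 (-0.97) and its partner S100a10 (-1.08) were lower. Anxa2 (-2.04) and S100a10 (-2.58) were also lower in tip than in stalk, as were Cav1 (-0.87) and Lgals3 (-0.70), beside the stroma markers given above, whose part was not tested. In mIMCD-3 Lgals3 lay 5.61 and Cav2 3.34 above the bud mean.

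On the basolateral route, 2 of 10 genes were higher in bud and 1 lower (median 0.16). Ap1s3 (4.71; limma adjusted p = 1.53e-06) and Ap1m2 (2.43; adjusted p = 7.82e-05), subunits of the clathrin adaptor AP-1 of which Ap1m2 is the epithelial form, were higher, and Ap1m1, the form found in all cells, was lower (-0.56; adjusted p = 0.0202). Ap1s3 and Ap1m2 were higher in tip than in stalk as well, by 1.26 and 1.09. In mIMCD-3 Ap1s3 was -1.87 from its bud mean and Ap1s1 1.54 above. The step into bud was thus not limited to genes of the apical route.

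Of 18 apical membrane proteins, 7 were higher in bud than in mesenchyme and 2 lower (median 0.18). The peptidase gene Dpp4 (3.31; limma adjusted p = 1.97e-05), the sodium channel subunits Scnn1g (2.93) and Scnn1b (1.78) and the cytoskeletal linker Ezr (2.03) had the widest steps. Between tip and stalk, Ezr (0.97), Prom1 (0.86), Crb3 (0.83) and Slc9a3r1 (0.66) were higher in tip, and Cftr (-0.80) and Podxl (-0.77) lower. In mIMCD-3 Dpp4 was -2.68 and Scnn1g -2.46 from the bud mean.

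**Figure D5:**
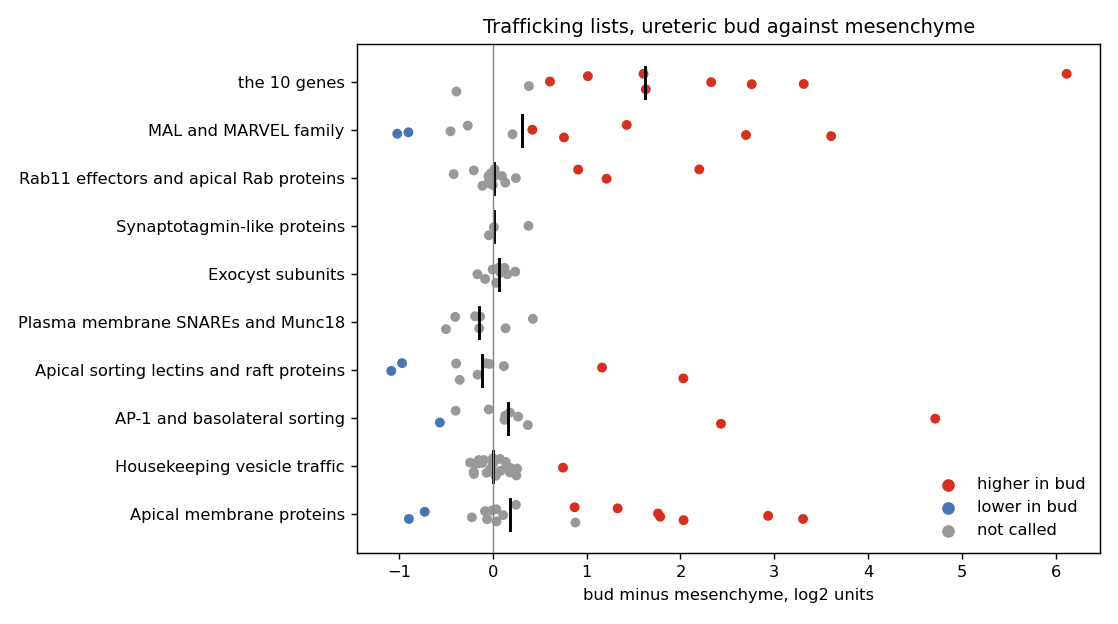
Difference of bud from mesenchyme (x axis, log2 units) for the 10 genes and the members of 9 trafficking lists, 1 point a gene, coloured by the limma call, with a black bar at each list's median. The 10 genes have a median of 1.62, while the exocyst and housekeeping lists lie close to 0.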

How the data were processed

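The deposited values are linear intensities from 7 Affymetrix mouse genome arrays, which the authors recalculated together by RMA (robust multichip analysis), per the submitters' processing notes and the series' design text. The software version and the scanner files are not given in the sources used here. RMA borrows information across the whole set, so the mIMCD-3 array and the older tissue arrays are not independent of each other, and low values are compressed towards a floor. Values ran between 5.08 and 19587, and the array medians between 45.5 and 49.0 in tissues and 42.0 in mIMCD-3.

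Of 45101 probe sets, 34945 had 1 gene symbol in GEO's platform annotation, 932 had several, 9160 had none and 64 were controls. Intensities as deposited were turned to log2, and each gene was represented by its brightest probe set over the 7 arrays, which gave 18193 genes. The 6 tissue arrays were fitted with limma 3.58.1 in R 4.3.3, 1 coefficient a group and 3 residual degrees of freedom, with two-sided moderated tests and Benjamini-Hochberg adjustment over all genes. The number of arrays limits the precision. Nothing says that the replicates came from separate litters or dissections, so p-values measure the spread between these arrays. The mIMCD-3 array has no replicate and was compared by size only.

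Replicate numbers were taken from the labels. Same-numbered arrays deviated together (r = 0.409, 0.577 and 0.45 for the 3 pairs of groups), so for the 10 genes values with a replicate block are given where they change a call. For markers and lists they are given only in part, and the block changed further calls there. With it, 3 relatives of Mal were lower in bud than in mesenchyme, and of the basolateral genes 3 were higher and 2 lower. Between tip and stalk it called 1 SNARE and Munc18 gene higher and 4 lower. On simulated data for tip against mesenchyme over 18193 genes, the fit recovered 97% of 100 genes changed by 1 log2 unit, 100% of 100 changed by 2, and called 0.0445% of unchanged genes. The simulated noise was independent between arrays, and only 200 genes were changed, all upward in tip. The real arrays deviated together and more genes were called, so these rates may not hold for them.

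The 10 genes and the lists were chosen with earlier results of these data known. The text names all 10 genes, from each list up to 4 genes widest in bud against mesenchyme, those called between tip and stalk and the 2 widest in mIMCD-3 against bud, and the profiles most like each of the 10. Alternatives were the block, limma's trend and robust options, median centring, adding 16 before the log, leaving out the dimmest 40% of genes, other summaries of probe sets, fits of the compared groups alone and leaving out each array. Promoter windows came from RefSeq on GRCm38.p6, were matched by gene, and are described here for 7 of the 10. Some genes of the lists were not analysed here.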

Additional observations from a re-analysis of the deposited data

Results flagged for a closer look

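For 6 of the 10 genes the step from mesenchyme differed between the bud compartments by a test of the difference itself, which equals tip against stalk because both share the mesenchyme arrays. The tip exceeded the stalk by 0.66 log2 units for Mal, 1.40 for Mal2, 1.32 for Rab25, 0.84 for Myo5b, 0.98 for Myo5c and 0.88 for Stx3 (limma adjusted p between 0.00104 for Rab25 and 0.0407 for Myo5c). Both tip arrays lay above both stalk arrays for each of these called genes, as they did for 28.2% of all genes. Stroma markers were lower in tip than in stalk for 8 of 8 genes and endothelial markers for 7 of 7, and their part in these differences was not tested. Ret, the receptor of the bud tip, was 2.18 higher in tip (limma adjusted p = 0.000599) and Calb1 1.12 higher (adjusted p = 0.0157).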

How the results depend on the processing

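Over the alternatives for the 10 genes in the 4 tissue comparisons, 496 values kept their direction and their side of the threshold, 18 passed it newly, 24 lost it and 4 reversed. With the replicate block 1 gene was lower (Sytl2) in bud against mesenchyme and 1 in tip against mesenchyme, Rab11a was called in bud and in stalk, and the block changed no other call of the 10 genes. Leaving out 1 array, the count of higher genes ran between 6 and 9 in bud, 5 and 9 in stalk and 7 and 8 against mesenchyme in tip, and between 2 and 6 in tip against stalk. It was 2 without stalk replicate 1 and 2 without stalk replicate 2, and the cause was not tested. Against bud, 1 gene was lower in mIMCD-3 with the mean of probe sets. Leaving out tissue arrays, an alternative chosen after seeing the data, did not change the mIMCD-3 counts. The reversals were uncalled values near 0 in tip against stalk. Rab17 ran between -0.074 (without tip replicate 1) and 0.18 over the left-out arrays. Vamp8 ran between -0.040 and 0.034 (without stalk replicate 1), was 0.018 without tip replicate 2, and was 0.11 with arrays centred. The cause was not tested. Centring moved the median of all genes in tip against stalk to 0.182, against 0.0652 without it. Over all genes the block called 1623 higher and 2131 lower in tip against stalk (521 and 1268 without it), and 1655 higher (1116) and 1552 lower (902) in bud, 577 lower in stalk (225), 1231 higher in stalk (782), 2037 higher in tip (1342) and 2331 lower in tip (1523) against mesenchyme. Left-out arrays gave as few as 725 higher and 475 lower in bud, 427 and 92 in stalk, and 197 and 724 in tip against stalk. Without the dimmest 40% of genes Myo5c and Sytl2 were not tested.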
